A study of Homo sapiens with 9 samples.

Results

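Open chromatin of 22Rv1 cells given the small molecule WX-02-43 was compared with that of cells given only its solvent, DMSO, by the graded strength of each peak as well as by its presence. 22Rv1 is a human prostate carcinoma line, and the cells of every group here had been edited to express SF3B1 with the C1111S change, so the DMSO controls carried it too. SF3B1 is a core subunit of the splicing machinery, and the change puts a serine in place of a cysteine. The 3 DMSO libraries came from cells in 0.1% DMSO, the 3 WX-02-43 libraries from cells in 20 µM WX-02-43 and the 3 WX-02-23 libraries from cells in 20 µM WX-02-23, all for 3 h. The labels name both compounds stereoprobes, give one dose and one time for each, and do not state whether the edited cells were 1 clone. They do not state either that replicates were separate cultures, and the p-values therefore measure the spread among these libraries alone, which may be technical.

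Chromosomes 1 to 22 and X were used. Peaks of the 3 WX-02-43 and 3 DMSO lists that overlapped by 1 bp or more were joined into one region, which gave 118133 regions, against 128994 when all 9 lists of the series were merged. Of the 118133 regions, 63281 (53.6%) held a peak in all 6 libraries and are called shared regions. Lists held 81962, 90196 and 101038 peaks in DMSO replicates 1 to 3 and 82318, 94508 and 97632 in WX-02-43 replicates 1 to 3. The WX-02-23 lists held 105132, 92296 and 90673 peaks in replicates 1 to 3, and that of replicate 1 was the longest of the series.

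ATAC-seq uses a transposase that inserts adapters where DNA is not wrapped in nucleosomes, so promoters, enhancers and other bound elements appear as peaks of fragments. Most DNA-binding factors need such open DNA, whereas a pioneer factor can bind its sites in closed chromatin and open them for others. FOXA1 is the pioneer factor of prostate epithelium, where it prepares enhancers for the androgen receptor, and the series concerns covalent molecules that redirect it. A peak list does not show which factor bound a region, and a fold or rank from one list is set against that library's own peaks and background.

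Each region was described by its rank, fold, width and summit. The rank is the place of the region's strongest peak among all peaks of the library when these are ordered by −log10 p, in percent, so that the strongest peak stands at 100% and tied peaks share a mean rank. The fold is the authors' ratio of fragments at the summit to the local background. The width is the length of the peak, summed where a library had several peaks in a region, and the summit is the position of its highest point, given in bp from the start of the merged region. Fragments at the summit, solved from the deposited fold and −log10 p, are given beside them as the number of units that the peak caller stacked there.

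Over shared regions the library medians overlapped between the groups in width, fold and fragments. The median width over shared regions was 407, 456 and 483 bp in DMSO replicates 1 to 3 and 391, 438 and 453 bp in WX-02-43 replicates 1 to 3, a difference of -21.3 bp (exact two-sided permutation p = 0.5, adjusted p = 0.75). Median fold was 8.18, 8.97 and 9.36 in DMSO and 8.07, 8.39 and 8.45 with WX-02-43, a difference of -0.53 (exact p = 0.3, adjusted p = 0.75). Replicate 1 was the lowest library of both groups in width and fold, and replicate 3 the highest. Median fragments at the summit were 28, 32 and 36 in DMSO and 28, 33 and 34 with WX-02-43 (exact p = 1, adjusted p = 1). The exact test of 3 libraries against 3 cannot give a p below 0.1, and p-values were adjusted over these 3 measures. Over all peaks of a list, shared or not, the groups did not overlap in width or fold. The median width was then 324, 331 and 331 bp in DMSO and 318, 320 and 322 bp with WX-02-43, and the median fold 7.08, 7.47 and 7.20 against 6.97, 6.72 and 6.65 (exact permutation p = 0.1 for both, the smallest that this test can give). The commonest local background was 1.14, 1.09 and 1.23 fragments in DMSO and 1.22, 1.38 and 1.41 with WX-02-43, so that it overlapped by 1 library. The part of that background in the folds was not tested.

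No shared region passed the test by rank, fold or width. With limma and Benjamini-Hochberg adjustment over all 63281 shared regions, 0 (0.0%) passed an adjusted p of 0.05 by rank, 0 (0.0%) by fold and 0 (0.0%) by width. The lowest adjusted p was 0.454 by rank, 0.197 by fold and 0.0576 by width. At an unadjusted p under 0.05 there were 3187 regions by rank (5.04%), 1598 of them higher and 1589 lower with WX-02-43. By fold there were 4694 (7.42%), 2285 higher and 2409 lower, and by width 4000 (6.32%), 2262 wider and 1738 narrower.

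Differences between the group means were small for most regions. The median size of the rank difference was 3.36 percentage points. The median SD among the 3 libraries of a group was 5.49 points in DMSO and 5.28 points with WX-02-43. That SD describes single libraries and the difference means of 3, so the values are not directly comparable. Rank differed by at most 5 points in 62.5% of shared regions and by at most 10 points in 84.2%. It differed by over 20 points in 1487 regions, 762 higher and 725 lower with WX-02-43, and the extremes were 46.1 and -56.2 points. As the plot of rank difference against mean rank shows, these wide differences lay among regions of low and middle rank and narrowed towards the strongest peaks.

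**Figure D1:**
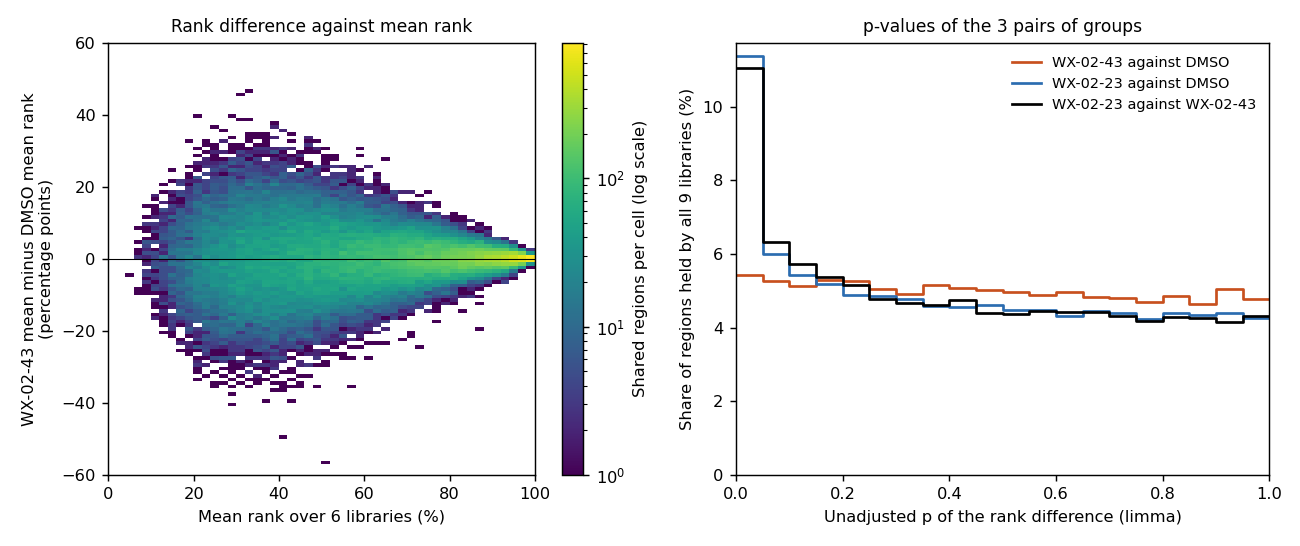
Left, the WX-02-43 mean minus the DMSO mean of rank (percentage points) against the mean rank over 6 libraries (%), shaded by the number of shared regions on a log scale; 84.2% of them lie within 10 points of 0. Right, the share of the 59188 regions held by all 9 libraries (%) in each step of unadjusted limma p for rank; the first step holds 5.43% for WX-02-43 against DMSO, 11.4% for WX-02-23 against DMSO and 11.1% for WX-02-23 against WX-02-43.

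Differences in fold and width were small for most regions too. Both were compared after each library was centred on its own median, so a shift common to a library is not in the values of this paragraph. The median size of the log2 difference, given as a ratio in either direction, was 1.07 for fold and 1.08 for width. This ratio was within 1.25 in 94.9% of shared regions for fold and 88.2% for width. Only 2 regions passed a ratio of 2 by fold, both lower with WX-02-43, against 85 by summed width, 33 wider and 52 narrower. The 95% interval of the fold difference lay wholly within 1.5-fold in either direction for 57831 regions (91.4%), and that of the width difference for 43879 (69.3%). The others were not measured precisely enough for that statement.

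Libraries that did not overlap between groups were about as frequent in both directions by rank. All 3 WX-02-43 libraries stood above all 3 DMSO libraries in 3310 regions (5.23%) and below them in 3282 (5.19%). By fold, with each library centred on its own median, 4451 regions (7.03%) stood above and 3340 (5.28%) below, and by width 4149 (6.56%) above and 2428 (3.84%) below. These shares are the background for every region named by non-overlap in the paragraphs that follow.

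The clearest differences by region are described next, as a ranking by p within non-overlapping regions and not as changes that passed the test. By rank and fold together they comprise 6 regions with higher values with WX-02-43 (A to D, I and J) and 7 with lower values (E to H and K to M). Coordinates are hg19 and carry no gene names, because an annotation of that build was not used here.

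Among the lower regions, E and K stood out by their level in DMSO. Region E, at chr1:45186973-45188082, was one of the stronger peaks of every DMSO library, with a rank of 97.9%, 95.6% and 97.7% in replicates 1 to 3. With WX-02-43 it ranked at 74.5%, 79.4% and 78.7%. Its summit held 92, 88 and 101 fragments in DMSO and 40, 47 and 48 with WX-02-43, so the groups were far apart and the libraries of each close together. The log2 fold difference was -0.54 (SE 0.11; limma adjusted p = 0.371) and the rank difference, on a normal-score scale, -1.16 (SE 0.14; limma adjusted p = 0.965). The position of the peak was much the same, with summits 423, 423 and 389 bp from the start in DMSO and 411, 429 and 423 bp with WX-02-43. WX-02-23 libraries, which took no part in choosing the region, stood with DMSO at 97.4%, 94.3% and 93.1% in rank and 103, 73 and 76 fragments.

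Region E had a neighbour with the same order of groups. The next shared region after it, 8028 bp away at chr1:45196111-45197274, held 75, 77 and 88 fragments in DMSO, 51, 56 and 59 with WX-02-43 and 88, 68 and 71 with WX-02-23. By rank it stood at 85.9%, 83.5% and 86.3% in DMSO and 71.6%, 72.1% and 74.7% with WX-02-43 (limma adjusted p = 0.966). The groups did not overlap there, as in 5.19% of all shared regions. On the other side, 5851 bp before E, the region at chr1:45180559-45181121 held 25, 30 and 25 fragments in DMSO and 13, 22 and 27 with WX-02-43, which overlapped. A strong peak 16902 bp after E, at chr1:45204985-45205966, did not share the pattern, with 90, 85 and 104 fragments in DMSO and 78, 91 and 97 with WX-02-43. Of the 7 shared regions within 25 kb of E, E and the one after it were the 2 whose groups did not overlap, a stretch looked at after its values were seen.

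**Figure D2:**
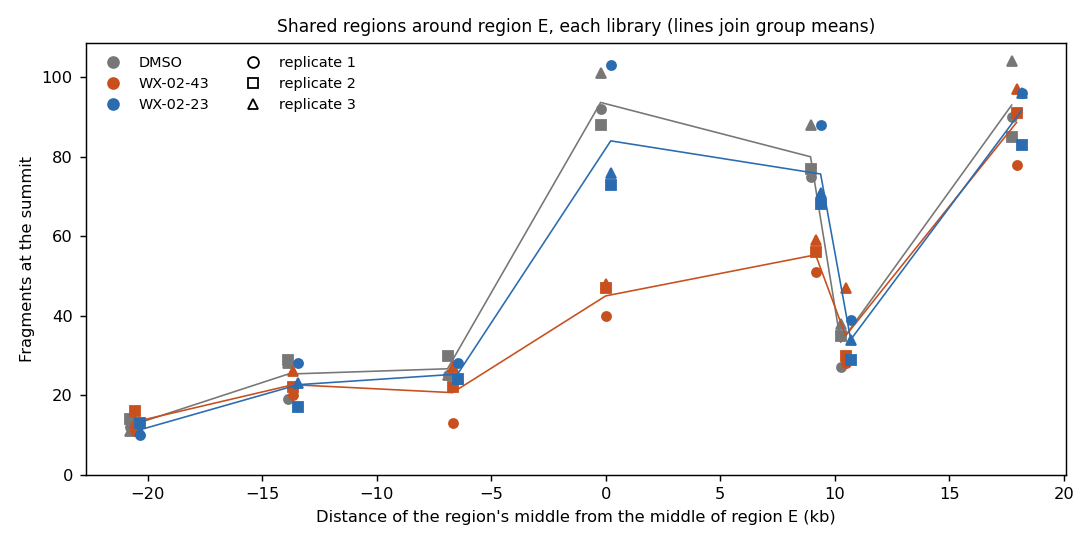
Fragments at the summit (linear axis from 0) in each library, for the 7 shared regions within 25 kb of region E, against the distance of the region's middle from the middle of E (kb); colours are groups, marker shapes replicates, and lines join group means. WX-02-43 lies below the other groups at E (40 to 48 fragments against 88 to 101 in DMSO) and at the region after it (51 to 59 against 75 to 88).

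Region K, at chrX:117341710-117342375, had the largest fold difference of all non-overlapping regions that were lower with WX-02-43. Its fold was 12.5, 12.1 and 12.1 in DMSO and 4.74, 6.29 and 6.11 with WX-02-43, from 37, 43 and 46 fragments against 10, 14 and 15. The 3 DMSO libraries were nearly equal, and the highest WX-02-43 library held 15 fragments. The log2 fold difference was -1.02 (SE 0.13; limma adjusted p = 0.197). By rank it stood at 78.5%, 79.7% and 80.4% in DMSO and 5.49%, 31.5% and 33.1% with WX-02-43. WX-02-23 libraries again stood with DMSO, at a fold of 11.3, 11.1 and 12.4 and at 41, 35 and 39 fragments. The nearest shared regions lay 190804 bp before and 136648 bp after K, and both overlapped between the groups, so K was isolated.

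Regions E and K passed by rank or fold under some other settings of the test. With a variance prior that follows the mean, limma called 2 regions lower by rank, E (adjusted p = 9.16e-07) and K (adjusted p = 0.00812), and 1 lower by fold, K (adjusted p = 0.0342). Fragments at the summit in place of the fold, an alternative chosen after seeing the data, gave 1 lower region, K again (adjusted p = 0.00343). When the WX-02-23 libraries were added to the fit over the 59188 regions held by all 9 libraries, WX-02-43 against DMSO gave 0 calls (0.0%) by rank and 1 (0.00169%) by fold, K (adjusted p = 0.0449).

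The other lower regions had fewer fragments. Region L, at chr20:14386968-14387541, held 26, 26 and 22 fragments in DMSO, 12, 10 and 12 with WX-02-43 and 33, 28 and 37 with WX-02-23. K and L were the 2 regions with a centred fold ratio beyond 2. The fold of L lay between 9.54 and 12.4 in DMSO and between 4.62 and 5.85 with WX-02-43. The log2 fold difference was -1.01 (SE 0.16; limma adjusted p = 0.367). Region M, at chr16:50222657-50223003, held 23, 21 and 22 fragments in DMSO and 11, 13 and 14 with WX-02-43, and here WX-02-23 was split, at 21, 11 and 13. In region G, at chr20:2226308-2227113, DMSO held 25, 28 and 28 fragments and WX-02-43 held 15, 16 and 19. Regions F (chr12:93567770-93568311) and H (chr3:167857787-167858125) were weak peaks, with at most 16 fragments in any DMSO or WX-02-43 library.

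Among the higher regions, A had the lowest p by rank and by fold. Region A, at chr3:104529798-104530114, held 10 fragments in each of the 3 DMSO libraries and 17, 20 and 22 with WX-02-43. Its rank was 8.97%, 9.30% and 7.95% in DMSO, near the bottom of each list, and 47.7%, 55.0% and 60.3% with WX-02-43. Fold was 5.13, 5.28 and 4.93 in DMSO and 8.11, 8.81 and 9.54 with WX-02-43, a log2 difference of 0.87 (SE 0.11; limma adjusted p = 0.197). The WX-02-23 libraries were spread across that range, with 17, 9 and 14 fragments. The peak was little wider, at 268, 283 and 260 bp in DMSO and 285, 317 and 286 bp with WX-02-43 (limma adjusted p = 0.913), and its summits lay within 20 bp of each other in the 6 libraries.

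Regions I, J and D were high with both compounds. Region I, at chr4:163108797-163109336, held 9, 9 and 12 fragments in DMSO, 15, 23 and 24 with WX-02-43 and 30, 20 and 30 with WX-02-23. The log2 fold difference of WX-02-43 from DMSO was 0.93 (SE 0.14; limma adjusted p = 0.367). Region J, at chr5:88039345-88039659, held 11, 11 and 13 fragments in DMSO, 17, 21 and 19 with WX-02-43 and 26, 17 and 21 with WX-02-23. Region D, at chr2:226983726-226984094, held 19, 18 and 19 in DMSO, 29, 29 and 32 with WX-02-43 and 43, 33 and 45 with WX-02-23. In each of these 3 regions the lowest library of either compound lay above the highest DMSO library. Regions B (chr12:17741975-17742260) and C (chr11:17301530-17301792) had WX-02-23 mean ranks between those of the other groups, and WX-02-23 replicate 2 had no peak at B.

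**Figure D3:**
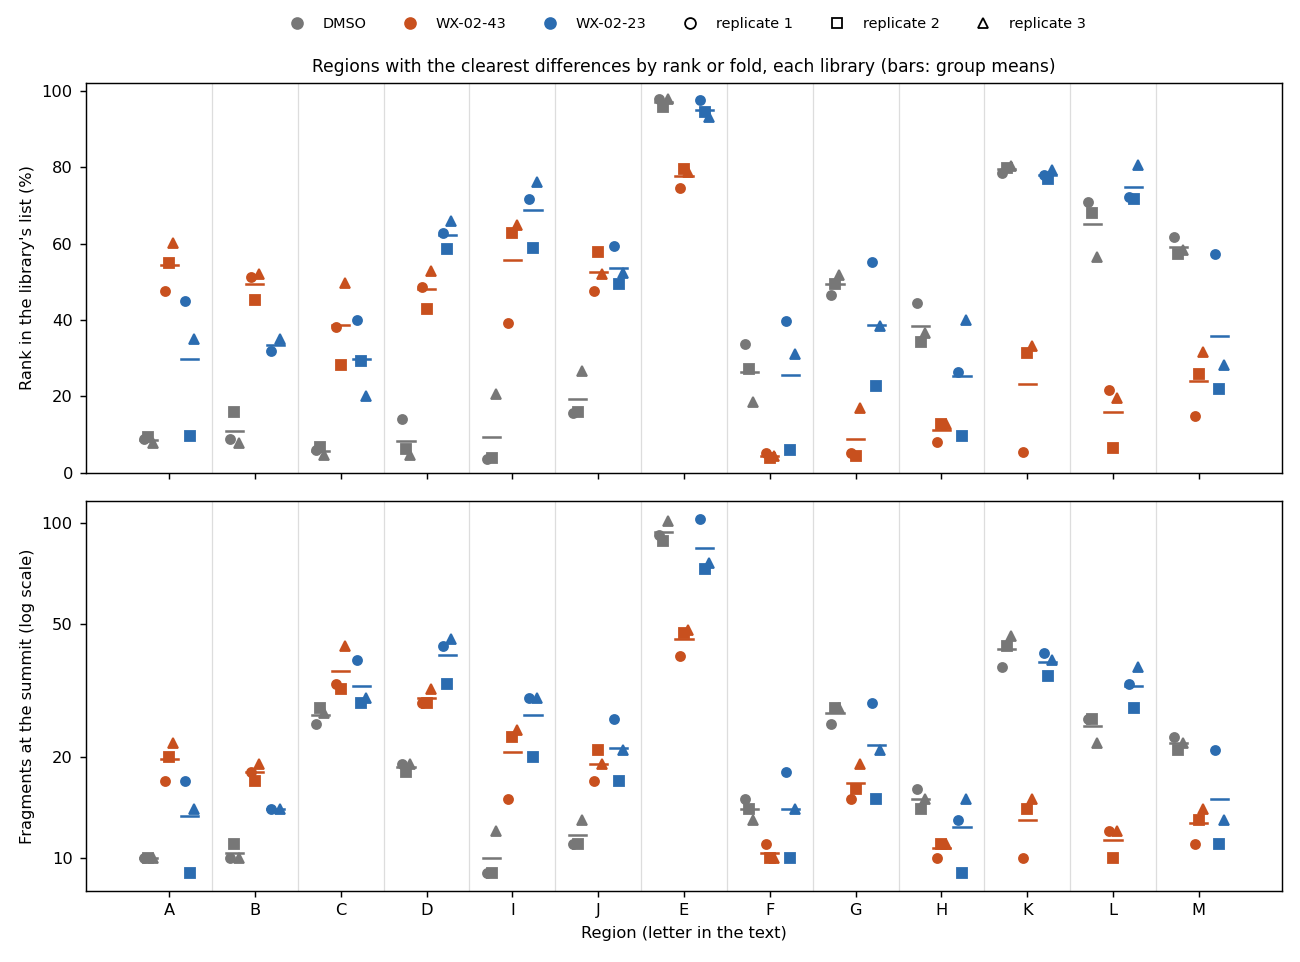
Rank in the library's own list (top, %) and fragments at the summit (bottom, log axis) of regions A to M in each of 9 libraries; colours are groups, marker shapes replicates and short bars group means. WX-02-23 stands beside DMSO at E, K and L and beside WX-02-43 or above it at D, I and J.

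Over the 13 regions, the mean rank of the WX-02-23 libraries that held a peak was nearer to WX-02-43 than to DMSO in 5 of the 6 regions with higher values and in 1 of the 7 with lower values. The 13 regions were chosen on the DMSO and WX-02-43 values, so the counts are a description without a test. A wider set of regions leaned the same way. Of its 1412 regions higher with WX-02-43, WX-02-23 was nearer to WX-02-43 than to DMSO in 927 (65.7%). Of its 1405 lower regions this held in 504 (35.9%). This set too was chosen on the DMSO and WX-02-43 values, and it left out regions that a WX-02-23 library lacked. The same share over all shared regions was not computed. The lean of the wider set is therefore a description as well and no separate support.

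By width, the region with the lowest p was N, at chr8:114319572-114320193. Its peaks covered 188, 197 and 214 bp in DMSO and 493, 512 and 544 bp with WX-02-43, the second of these in 2 peaks, a log2 difference of 1.44 (SE 0.10; limma adjusted p = 0.0576). Its fragments were 10, 10 and 11 in DMSO and 11, 17 and 15 with WX-02-43, so the peak was weak in all of them, and with WX-02-23 they covered 627, 405 and 477 bp. Region O, at chr7:137774147-137774661, spanned 199, 253 and 270 bp in DMSO and 410, 454 and 505 bp with WX-02-43, while its fragments overlapped (31, 37 and 39 against 32, 49 and 39). Among narrower regions, P (chr19:7990163-7990763) had 407, 473 and 588 bp under peaks in DMSO and 189, 199 and 205 bp with WX-02-43, and DMSO replicates 1 and 2 each had 2 peaks there. Region Q, at chr13:44924946-44925904, had 623, 857 and 959 bp in DMSO, the first in 2 peaks, and 316, 362 and 361 bp with WX-02-43, with 48, 34 and 58 against 49, 49 and 58 fragments. O, P and Q did not pass (limma adjusted p = 0.250 for each), and their fragments overlapped between the groups. O and P stood with WX-02-23 near the WX-02-43 widths, at 484, 457 and 453 bp and at 234, 219 and 179 bp.

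With peaks restricted to a −log10 q of at least 5, limma called 1 wider region, N (adjusted p = 0.0203), and 2 narrower ones. These were chr16:54456090-54456928 (adjusted p = 0.0203) and chr19:7869803-7870416 (adjusted p = 0.0298). In the fit of all 9 libraries, 5 regions (0.00845%) passed by width, 3 wider and 2 narrower.

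Summit position was the quantity in which regions passed. Of the 51496 shared regions with 1 peak in every library, 42 (0.0816%) passed, 21 with the summit moved towards higher and 21 towards lower coordinates. The shifts ran from 121.7 to 1078.7 bp, with a median of 289.7 bp. The regions that passed were wide, with a median peak width of 843 bp against 386.5 bp over all single-peak regions. At an unadjusted p under 0.05 there were 2452 (4.76%). When the fit held a block for replicate number, 1 region towards higher (T below) and 2 towards lower coordinates (V and W below) passed. None of the 42 passed by rank, fold or width, but neither did any other shared region. Leaving out each library in turn gave 26 to 39 regions moved towards higher and 32 to 42 towards lower coordinates. That group then kept 2 libraries, and 53427 to 55799 single-peak regions were tested. The reason for the higher counts was not tested.

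Summits of 3 libraries against 3 also parted in other ways. In 569 single-peak regions the 6 summits formed 2 clusters of 3 libraries, at least 100 bp apart and at most 100 bp wide each. The clusters matched the treatment groups in 74 of them (13.0%) and mixed the groups in the rest. Whether 13.0% is above the share that splits unrelated to treatment would give was not tested. Of the 42 regions that passed, 41 were among the 569. Their limma p-values, given below for the named ones, rest largely on the spread within each cluster. They do not measure how often the highest point of a region switches between 2 positions from library to library. For single libraries the median distance between summits of a region was 24 to 29 bp, within groups and between them, and 8.89% to 10.5% of summits lay over 100 bp apart.

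The largest shift was in region V, at chr19:50192861-50194476. Its summit lay 1442 bp from the start in all 3 DMSO libraries and 358, 368 and 364 bp from it with WX-02-43 (limma adjusted p = 7.77e-06). Fold was 6.66, 7.22 and 6.31 in DMSO and 5.94, 6.50 and 6.38 with WX-02-43, so the heights overlapped. The peak covered 1431, 1491 and 1443 bp in DMSO and 1616, 1543 and 1546 bp with WX-02-43. The highest point thus lay at opposite ends of the same open region. WX-02-23 stood with DMSO, at 1424, 1441 and 1426 bp.

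Regions T and U had summits that both compounds shared. In T, at chr2:227243466-227244667, they lay at 262, 249 and 249 bp in DMSO, at 875, 875 and 866 bp with WX-02-43 and at 890, 884 and 883 bp with WX-02-23 (limma adjusted p = 0.000103 for WX-02-43 against DMSO). Fragments at T were 45, 45 and 51 in DMSO, 46, 59 and 57 with WX-02-43 and 76, 64 and 68 with WX-02-23. In U, at chr18:43912931-43914042, they lay at 231, 233 and 233 bp in DMSO, at 651, 644 and 651 bp with WX-02-43 and at 652, 659 and 649 bp with WX-02-23 (limma adjusted p = 0.000405). Region S, at chrX:130886283-130887729, was like V, with 323, 326 and 324 bp in DMSO, 1049, 983 and 1043 bp with WX-02-43 and 375, 316 and 377 bp with WX-02-23 (limma adjusted p = 0.000861). In the other named regions the 3 WX-02-23 libraries were split between the positions. These were R (chr14:102226513-102228018), W (chr10:104261673-104262927), X (chr17:73892183-73893290) and Y (chr10:38078466-38079430).

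**Figure D4:**
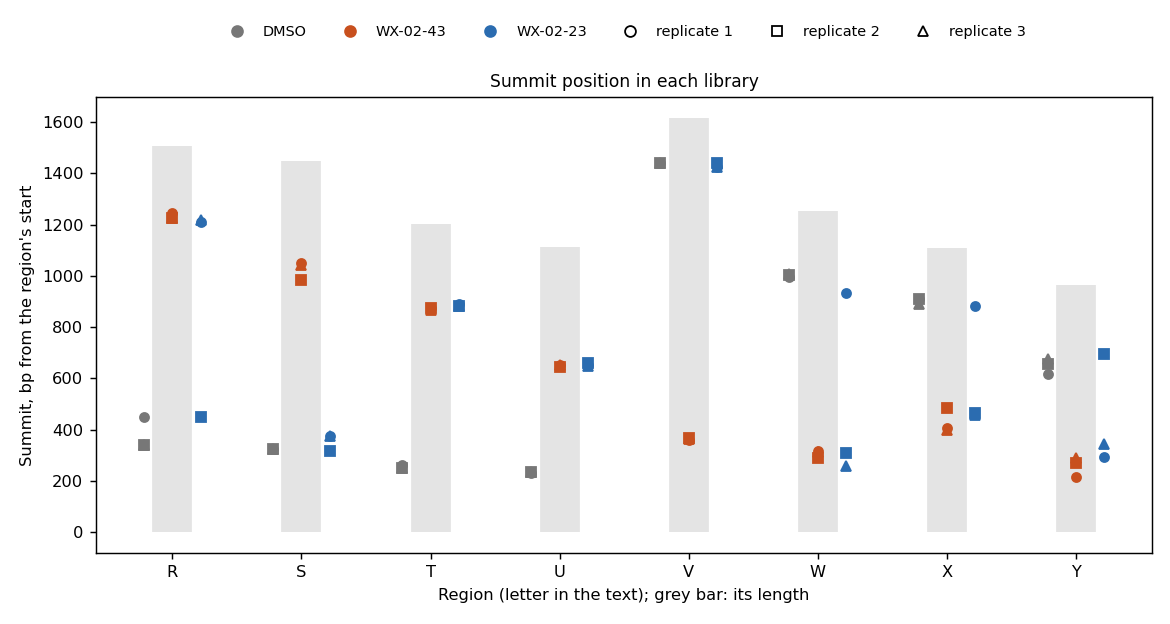
Summit position (bp from the start of the region) in each of 9 libraries for regions R to Y, the named regions that passed by summit; grey bars show the length of the region, colours groups and marker shapes replicates. WX-02-23 summits lie with WX-02-43 at T and U, with DMSO at S and V, and at both positions in the other 4.

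Presence and absence gave few regions that followed the groups. All 3 WX-02-43 libraries and no DMSO library held a peak in 433 of 118133 regions (0.367%), and the reverse was true of 482 (0.408%). With each library left out in turn the same counts ran from 562 to 1846 and from 664 to 1893, because the condition then rests on 5 libraries and not 6. With all deposited peaks the mirror cells of the grid of regions by the libraries that hold them had similar counts. For example, 1520 regions were held by all 3 WX-02-43 and 1 DMSO library and 1506 by all 3 DMSO and 1 WX-02-43 library. The balance depended on the threshold, since peaks with a −log10 q of at least 5 gave 268 regions held by WX-02-43 alone and 555 by DMSO alone. With at least 50% of a region covered the counts were 475 and 641. A single library alone held 20182 regions, 9999 of them in WX-02-43 and 10183 in DMSO.

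**Figure D5:**
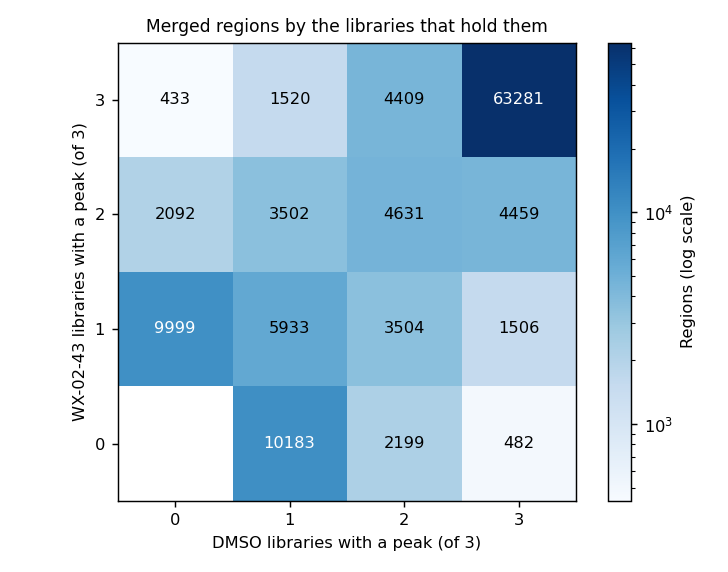
Number of merged regions by how many of the 3 DMSO libraries (horizontal) and of the 3 WX-02-43 libraries (vertical) held a peak, shaded on a log scale. The corner cells hold 433 and 482 regions, against 63281 held by all 6.

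Regions present in one group alone were weak peaks. Those held by WX-02-43 alone had a median rank of 14.8%, 12 fragments and a width of 200 bp, and those held by DMSO alone 17.0%, 13 fragments and 196 bp. Shared regions had a median rank of 64.9%, 32 fragments and 439 bp. In none of the 433 or the 482 did the region rank over 50% in all 3 libraries that held it. The lowest summit in every list held 7 fragments, so a missing peak does not mean that no fragments lay there.

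Among those held by WX-02-43 alone, the highest-ranked were Z (chr7:80599680-80600081), AA (chr19:43588424-43588700) and AB (chr2:15219769-15220139). Region AB held 16, 14 and 19 fragments in WX-02-43 replicates 1 to 3 and Z held 15 in each of them. WX-02-23 had a peak in replicate 1 alone at each of the 3. That replicate had the longest list of the series, with 105132 peaks, and the part of list length in these calls was not tested. Among those held by DMSO alone, AC (chr10:66305855-66306242) held 17, 18 and 17 fragments, AD (chr3:14899061-14899332) held 17, 18 and 18 and AE (chrX:68089298-68089566) held 14, 15 and 18. All 3 WX-02-23 libraries had a peak at AC, AD and AE. Over the whole sets, all 3 WX-02-23 libraries held 137 of the 433 (31.6%) and 101 of the 482 (21.0%), and none of them held 95 of each. They held 59188 of the 63281 shared regions, but those were stronger peaks. The share among other regions as weak as these was not computed. The 2 shares thus have no background here, and their difference was not tested.

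Strength and location were then used to divide the shared regions. They were cut into 10 classes of equal size by mean rank. From the weakest class to the strongest, the share with an unadjusted p under 0.05 ran from 11.8% to 2.92% by rank, with its lowest value of 1.15% in class 9. By fold it ran from 12.9% to 0.442%, with 381 regions higher and 435 lower with WX-02-43 in the weakest class and 27 and 1 in the strongest. The median SE of the log2 fold difference ran from 0.14 to 0.11 over the same classes. That of the rank difference, on the normal-score scale, ran from 0.31 to 0.14. Low p-values thus came more often from weaker peaks. The main fit used a single variance prior for weak and strong peaks alike. The shares therefore depend on that setting too and do not show where WX-02-43 acted.

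Of 23 chromosomes, the median centred log2 fold of all 3 WX-02-43 libraries stood above all 3 DMSO libraries on 1 (4.35%) and below on 3 (13.0%). Chromosome X was the one above, at 0.11, 0.10 and 0.10 in DMSO and 0.15, 0.14 and 0.18 with WX-02-43 over 1586 shared regions. Chromosomes 1, 17 and 22 were below by small amounts, and chromosome 17, for example, stood at -0.07, -0.05 and -0.07 in DMSO and at -0.08 in all 3 WX-02-43 libraries. By median rank, which was not centred on the library, no chromosome separated the groups, X included. Counts at an unadjusted p under 0.05 by rank (limma) leaned on some chromosomes. They were 22 higher and 98 lower on chromosome 19, 35 and 78 on 17, 11 and 37 on 22, and 33 and 63 on 16. Both directions together made 4.28%, 3.97%, 3.81% and 4.46% of the shared regions there, against 5.04% of all shared regions. The lean was the other way on, for example, chromosomes 3 (131 and 84), 5 (97 and 63), 6 (108 and 73) and X (42 and 25). Their shares were 5.45%, 4.83%, 5.03% and 4.22%. These leanings were not tested.

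Library pairs were compared by the Spearman correlation of rank over shared regions, as a description, since these points share regions and libraries. It was 0.918 to 0.924 among DMSO libraries, 0.918 to 0.925 among WX-02-43 libraries and 0.907 to 0.918 between the groups. Over the regions held by all 9 libraries it averaged 0.915 between DMSO and WX-02-43, 0.882 between DMSO and WX-02-23 and 0.886 between the 2 compounds. The DMSO and WX-02-43 libraries were thus slightly less alike across groups than within them, and both were less like WX-02-23.

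The compounds were given at the same dose and time, and 3 pairs of groups were compared in 1 fit. By rank, 293 of 59188 regions (0.495%) differed between WX-02-23 and WX-02-43, 123 higher and 170 lower with WX-02-23. Between WX-02-23 and DMSO 509 (0.86%) differed. A block for replicate number in that fit left no call by rank between the compounds. It left 28 higher and 34 lower by rank with WX-02-23 than in DMSO. By fold, 979 (1.65%) differed between the compounds, 317 higher and 662 lower with WX-02-23, and 988 (1.67%) between WX-02-23 and DMSO. By width the numbers were 97 (0.164%) and 129 (0.218%). By summit, over 45649 regions, they were 35 (0.0767%) and 33 (0.0723%), against 28 (0.0613%) for WX-02-43 and DMSO. These comparisons share libraries in pairs, so the counts are not independent of each other.

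The adjustment decided how many regions passed for WX-02-43 against DMSO. With p-values adjusted over the 3 pairs together, an alternative chosen after seeing the data, 14 regions (0.0237%) passed by rank, 10 higher and 4 lower with WX-02-43. By fold 89 (0.15%) passed, 45 higher and 44 lower, with ratios from 1.35 to 2.04. Of the regions named above, C, D, E, J and L were among the 14, and A, E, G, I, J, K, L and M among the 89. This adjustment lets the low p-values of the WX-02-23 pairs set the threshold for the third pair.

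In 4 regions chosen after their values were seen, for the largest differences between the compounds, WX-02-43 stood with DMSO or beyond it. Region AF, at chr11:114000688-114001275, held 15, 17 and 26 fragments in DMSO, 13, 18 and 20 with WX-02-43 and 66, 52 and 62 with WX-02-23. Region AG, at chr1:249217569-249218038, held 10, 13 and 14 in DMSO, 11, 11 and 15 with WX-02-43 and 45, 29 and 33 with WX-02-23. Both were weak in the other groups and strong with WX-02-23. Region AH, at chr3:25638964-25639983, held 40, 45 and 54 in DMSO, 49, 57 and 60 with WX-02-43 and 16, 12 and 17 with WX-02-23. Region AI, at chr2:212516847-212517413, held 26, 22 and 35 in DMSO, 29, 33 and 32 with WX-02-43 and 10, 9 and 11 with WX-02-23. For these 4 the log2 fold differences of WX-02-43 from DMSO were -0.15 (SE 0.13), -0.05 (SE 0.12), 0.24 (SE 0.10) and 0.16 (SE 0.12) in the order given, with limma adjusted p-values of 0.860, 0.955, 0.650 and 0.848.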

How the data were processed

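Alignment was to hg19 with Bowtie2 and peak calling with MACS2, per the submitters' processing notes, and each deposited list holds 1 library. Their versions, settings and any transposase shift were not given in the sources used here. The authors' deposited lists give each peak's fold over local background (a ratio), −log10 p, −log10 q and a score that repeats the −log10 q and was not used. The labels give an Active Motif kit. Read totals were not analysed here; list length and fragments at the summit describe depth. A whole-number fragment count at the summit was solved from fold and Poisson −log10 p and matched within 0.002 for 100% of summits.

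Intervals of the 6 lists were merged at 1 shared bp (Python 3.11.15, pandas 2.3.3). Per library and region, the peak with the highest −log10 p gave rank and summit, the highest fold was taken, and widths were summed over its peaks. Ranks as normal scores, log2 fold and log2 width (both centred on the library median) and summits were fitted with limma 3.58.1 (R 4.3.3) and Benjamini-Hochberg adjustment over all regions at 0.05, after tests on simulated data. Library medians had an exact permutation test of 20 assignments. Up to 8 regions per direction by rank and by fold, and 4 by width and by summit, were named from non-overlapping regions that passed, largest difference first, filled by lowest p to 4 (rank, fold) or 2; 3 per direction by presence; 2 per direction for the compounds. Regions and lists were chosen with earlier results of these data known. Alternatives were stricter or equal-length lists, coverage, scaling, variance prior, a replicate block and leaving out each library. The main fits did not pair libraries by replicate number. Same-numbered deviations correlated weakly by rank, at 0.081, 0.017 and 0.058, against -0.077 to 0.030 for libraries of different numbers. A pairing of libraries is therefore not settled.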

Additional observations from a re-analysis of the deposited data

How the results depend on the processing

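By rank, fold and width the counts stayed at 0 when each library was left out and in 15 of 16, 18 of 20 and 14 of 16 counts under other settings; the exceptions were 2 lower by rank and 1 lower by fold with a trended prior, 1 lower with fragments in place of fold, and 1 wider and 2 narrower at a −log10 q of at least 5. A group missing a library kept 2 and shared limma's pooled spread. Summit counts were 39 and 35 with all shared regions, and 26 to 39 towards higher and 32 to 42 towards lower coordinates without one library. Those towards lower coordinates were 32, 36 and 34 without DMSO replicates 1 to 3 and 37, 40 and 42 without WX-02-43 replicates 1 to 3. Those towards higher coordinates were 39 without WX-02-43 replicate 2 or 3. From 53427 to 55799 single-peak regions were then tested, against 51496 with all 6 libraries.

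With a replicate block, summit counts were 1 (T) and 2 (V and W), and 0 regions passed by rank, fold and width. Same-numbered libraries correlated weakly, and not every library correlated best with its own number, so a pairing is not settled. In the 3-group fit the block left 28 higher and 34 lower by rank for WX-02-23 against DMSO, 0 and 0 for WX-02-23 against WX-02-43, and 0 lower by fold for WX-02-43 against DMSO. Adjusting over 3 pairs gave 10 and 4 by rank and 45 and 44 by fold for WX-02-43 against DMSO, and by rank 113 and 90 for WX-02-23 against DMSO and 66 and 104 between the compounds.

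Regions held by one group alone numbered 268 for WX-02-43 and 555 for DMSO at a −log10 q of at least 5, and 475 and 641 at 50% coverage. Leaving out a library makes the condition easier to meet: counts ran from 562 to 1846 for WX-02-43 alone and 664 to 1893 for DMSO alone. For WX-02-43 alone, dropping DMSO replicate 2 gave 740 and DMSO replicate 3 gave 1535, while dropping WX-02-43 replicate 1 gave 1846, replicate 2 gave 835 and replicate 3 gave 727. For DMSO alone, dropping DMSO replicate 1 gave 1893, replicate 2 gave 1049 and replicate 3 gave 753, while dropping WX-02-43 replicate 2 gave 1075 and replicate 3 gave 1243. The library difference in median fragments changed sign, to 2.17 without DMSO replicate 3 and 0.833 without WX-02-43 replicate 1 (range -2.25 to 2.17). That in width ran from -41.2 to -3.58 bp and that in fold from -0.818 to -0.253.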
